A study of Mus musculus with 8 samples.

Results

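The genes described here make, regulate and move cholesterol. A list of 29 genes was matched to probe sets annotated with 1 gene symbol, and 27 of the 29 were found among the 22180 genes measured: 17 of 19 genes of synthesis and all 10 genes of regulation, transport and efflux. Where a gene had several probe sets, the brightest on average was taken. Acat2 was not analysed here, and the probe set of Idi1 is shared with a second gene and is described apart. The RNA came from hippocampal neurons of C57BL/6J mouse embryos, an inbred laboratory strain, dissected at E18.5 and grown for 11 days in vitro in medium that held AraC, which acts against dividing cells. The KCl group consisted of 4 cultures exposed for 4 h to 55 mM KCl, which depolarises neurons and lets calcium in. The other 4 cultures are labelled only as untreated. Each array carries a mouse number of its own, and the labels do not say whether several embryos were pooled or how cultures were prepared in parallel, so p-values measure the spread between these arrays, whose number limits the precision. The comparison asks which transcripts depend on activity.

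Cells build cholesterol from acetyl-CoA by way of mevalonate and isoprenoids, close the chain to lanosterol and then trim and reduce the sterol ring. When sterol is low in the endoplasmic reticulum, Scap carries the SREBP factors (Srebf1, Srebf2) to the Golgi for cleavage and they switch on most genes of the route, whereas the Insig proteins hold Scap back when sterol is plentiful. The brain makes its own cholesterol, with much of it coming from astrocytes, and neurons dispose of the excess through Cyp46a1, which hydroxylates cholesterol so that it can leave the cell.

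The 250 bases before the annotated start are shown for the 2 genes of synthesis whose KCl arrays all lay above the untreated arrays. These are Cyp51 (chr5:4104698-4104947, minus strand) and Msmo1 (chr8:64733579-64733828, minus strand). Also shown are the 2 with the lowest log2 changes, Tm7sf2 (chr19:6067851-6068100, minus strand) and Mvd (chr8:122443423-122443672, minus strand), and Hmgcs1 (chr13:119690101-119690350, plus strand). Of the 23 listed genes with a promoter window, Hmgcs1 alone held the exact letters searched for the sterol regulatory element. Variants of these letters were not searched, so the other windows may hold such an element. Sequences are RefSeq's, build GRCm38.p6. Capitals mark the NF-Y box CCAAT on either strand and the sterol regulatory element TCACNCCAC, where N is any base.
Cyp51: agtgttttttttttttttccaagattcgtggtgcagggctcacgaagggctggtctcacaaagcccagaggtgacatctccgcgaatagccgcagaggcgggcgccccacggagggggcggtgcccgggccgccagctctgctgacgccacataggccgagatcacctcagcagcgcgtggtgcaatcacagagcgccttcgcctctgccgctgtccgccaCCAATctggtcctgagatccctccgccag
Msmo1: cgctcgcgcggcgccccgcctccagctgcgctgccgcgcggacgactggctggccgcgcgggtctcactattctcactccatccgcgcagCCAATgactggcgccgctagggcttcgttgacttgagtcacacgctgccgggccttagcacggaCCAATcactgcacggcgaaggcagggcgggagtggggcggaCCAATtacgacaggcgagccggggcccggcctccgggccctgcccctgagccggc
Tm7sf2: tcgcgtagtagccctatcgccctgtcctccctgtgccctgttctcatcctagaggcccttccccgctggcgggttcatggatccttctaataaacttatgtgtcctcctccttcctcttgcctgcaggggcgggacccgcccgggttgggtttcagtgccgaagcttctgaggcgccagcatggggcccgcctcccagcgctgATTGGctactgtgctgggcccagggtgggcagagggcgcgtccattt
Mvd: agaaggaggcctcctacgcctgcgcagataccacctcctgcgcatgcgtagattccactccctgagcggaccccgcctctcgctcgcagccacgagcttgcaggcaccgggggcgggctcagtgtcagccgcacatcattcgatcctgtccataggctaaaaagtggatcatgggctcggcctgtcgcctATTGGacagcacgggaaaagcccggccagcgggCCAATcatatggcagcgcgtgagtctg
Hmgcs1: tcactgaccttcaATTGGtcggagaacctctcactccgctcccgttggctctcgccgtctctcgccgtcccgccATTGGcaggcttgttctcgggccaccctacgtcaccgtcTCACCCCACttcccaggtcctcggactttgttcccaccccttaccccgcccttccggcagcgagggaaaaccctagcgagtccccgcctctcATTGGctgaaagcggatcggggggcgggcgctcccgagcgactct
The capitals do not overlap between motifs in these windows. With the start site counted as 0, the box began at -29 in Cyp51, at -160, -96 and -55 in Msmo1, at -47 in Tm7sf2 and at -60 and -27 in Mvd. It was present before genes of synthesis on both sides of 0 in the comparison below. The box was found for 20 of the 23 listed genes with a window, so this says nothing about the direction of change.

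Promoter windows of 250 bases before to 50 after the start were given for 23 of the 29 listed genes, 31 windows in all. Fdps, Fdft1, Sqle, Stard4, Npc1 and Abcg1 had no window and were not searched. The NF-Y box stood in 21 of these windows (67.7%), against 37.7% of the 20611 windows of all genes measured here and 37.4% of all 32851 windows. By gene it was found for 20 of 23, including 9 of 9 genes of the sterol steps, against 41.6% of the genes measured. The GC box GGGCGG stood in 26 windows (83.9% against 46.5% for windows of genes measured) and the E-box CACGTG, which SREBP1 also binds, in 7 (22.6% against 8.07%). Windows of the same gene can overlap, as those of Scap do, so a site can be counted more than once. By gene the GC box was found for 22 of 23 (49.5% of genes measured) and the E-box for 6 of 23 (9.19%). The sterol regulatory element was found in 1 window (3.23% against 1.22%), that of Hmgcs1, at -137. The cAMP response element TGACGTCA was found in 0 windows (2.32% of windows of genes measured), the AP-1 site TGANTCA in 2 (6.45% against 7.26%), those of Dhcr7 and Msmo1, and the LXR element, a direct repeat of AGGTCA with 4 bases between, in 0 (0.0152% of all windows). Both strands were searched for each, and only for the exact letters given, so sites that vary from them were not counted. The exact LXR repeat matched 0% of windows of genes measured, so its count says nothing about these genes. These matches describe letters in a window and were not tested against binding.

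No member passed the test after 4 h of KCl without the replicate number in the fit: 0 of 27 were called, at limma adjusted p of 0.0517 to 0.985, against 2.36% of all genes (1.34% higher and 1.02% lower). By unadjusted limma p, 8 of 27 members were under 0.05, against 13.0% of all genes: 4 were higher, against 5.69% of all genes, and 4 lower, against 7.34%. The titles give both groups replicate numbers, and same-numbered arrays deviated together. With the number as a block, Cyp51 was called higher and Tm7sf2 and Mvd lower (adjusted p = 0.0297, 0.043 and 0.0477), 3 of 27 members against 4.44% of all genes (2.43% higher and 2.01% lower). No member passed without both arrays numbered 1, against 2.1% of all genes without the block. The groups did not overlap for 4 of 27 members, against 8.16% of all genes: Cyp51 and Msmo1 lay above in KCl (3.83% of all genes), and Tm7sf2 and Cyp46a1 below (4.33%). All 4 same-numbered pairs moved in 1 direction for 11 of 27 members, against 24.2% of all genes. The pathway therefore showed no common direction. The median log2 change was -0.05 over the 17 genes of synthesis (-0.64 to 0.74) and -0.03 over the 10 of regulation, transport and efflux (-0.59 to 0.41), against -0.01 over all genes. The median change without regard to sign was 0.27 and 0.26 for these groups and 0.12 over all genes, and all 27 members were brighter than the median gene.

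**Figure D1:**
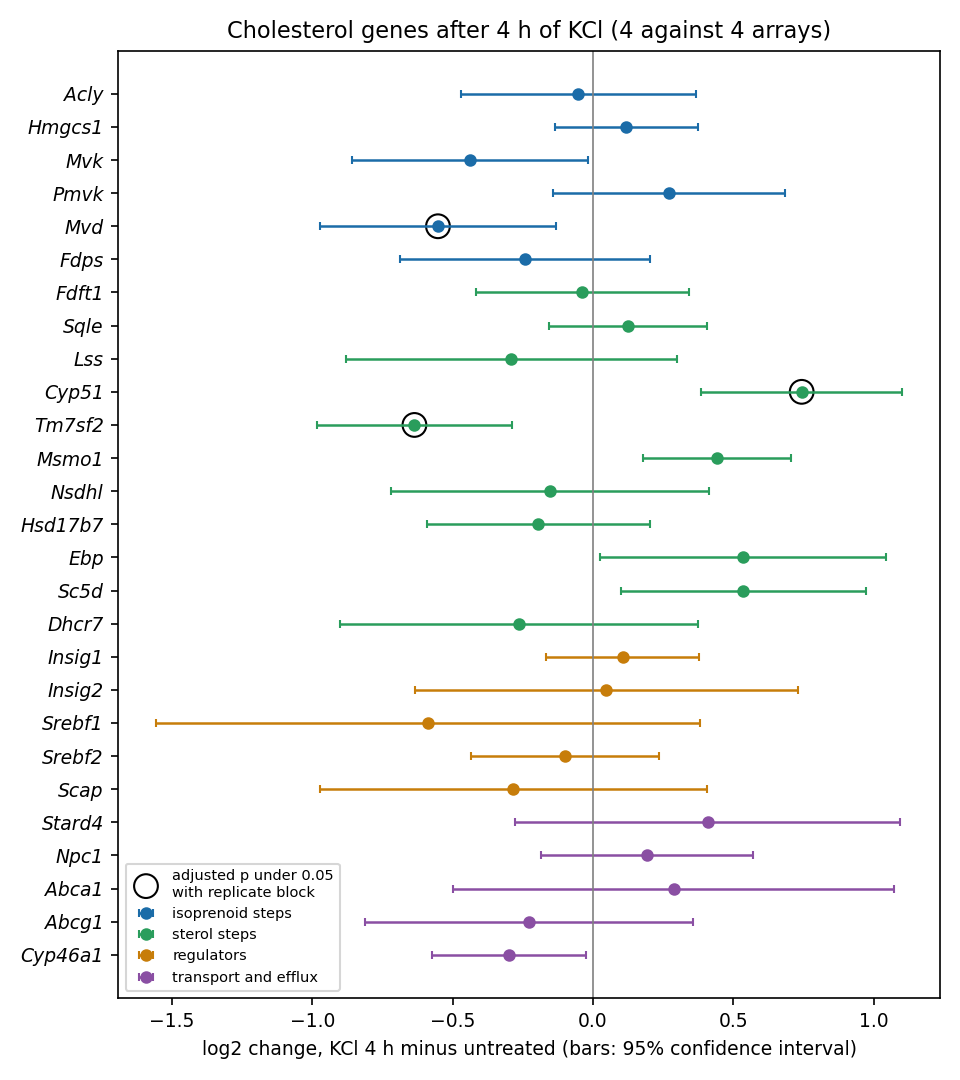
Log2 change of each of the 27 measured members, KCl 4 h minus untreated, with its 95% confidence interval from limma (4 against 4 arrays, no replicate block); colours give the role, and rings mark an adjusted p under 0.05 with the replicate block. Cyp51 at 0.74 is the highest and Tm7sf2 at -0.64 the lowest, and they stand next to each other in the order of the pathway.

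The early, isoprenoid part of the route had 6 measured genes, 2 with a log2 change above 0 and 4 below, and a median change of -0.15. Mvd makes isopentenyl diphosphate, the isoprene unit, by decarboxylating its precursor. It stood at log2 values of 8.16, 8.12, 8.78 and 8.26 in the untreated arrays numbered 1 to 4 and at 7.72, 7.79, 8.12 and 7.48 in the KCl arrays (probe set means 8.33 ± 0.309 and 7.78 ± 0.264, SD, n = 4 each). Every KCl value was below the untreated value of the same number, but KCl replicate 3 reached the lowest untreated array. The log2 change was -0.55 (SE 0.185, limma adjusted p = 0.214 without and 0.0477 with the block). Its adjusted p over all alternatives was 0.0477 to 0.429.

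Mvk, which puts the initial phosphate on mevalonate, showed values of 7.15, 7.32, 7.78 and 7.08 in untreated and 6.89, 6.61, 7.24 and 6.84 in KCl arrays. The groups overlapped through KCl replicate 3, although 4 of 4 pairs were lower. Its log2 change was -0.44 (95% confidence interval -0.86 to -0.02), and it did not pass with or without the block (limma adjusted p = 0.101 and 0.359). Pmvk, the kinase that acts between these enzymes, lay on the other side of 0, at 0.27 (-0.14 to 0.68). The entry enzymes Hmgcs1 and Acly had small differences. Hmgcs1, which makes HMG-CoA, had group means of 12.2 ± 0.189 without and 12.32 ± 0.0819 with KCl (SD, n = 4 each) and a log2 change of 0.12 (-0.14 to 0.37). Acly, which supplies acetyl-CoA from citrate, had a change of -0.05 (-0.47 to 0.37). Fdps, a later enzyme that makes farnesyl diphosphate, had a change of -0.24 (-0.69 to 0.20). The probe set shared by Idi1 and Gm13502 stood at 9.74, 9.74, 10.74 and 10.55 in untreated and at 10.48, 10.66, 10.80 and 10.72 in KCl arrays. That is a log2 difference of 0.47 (SE 0.239, limma adjusted p = 0.542 over all probe sets), which cannot be assigned to either gene.

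The sterol steps held the members that differed most, in opposite directions. Cyp51, the cytochrome P450 that strips a methyl group from lanosterol, stood at 10.12, 10.15, 10.71 and 10.63 in untreated and at 11.04, 11.18, 11.3 and 11.07 in KCl arrays (10.4 ± 0.314 and 11.15 ± 0.116, SD, n = 4 each). All KCl arrays were above all untreated arrays, and the 2 untreated arrays numbered 1 and 2 were the lowest. The log2 change was 0.74 (SE 0.157, 95% confidence interval 0.38 to 1.10), or 1.67-fold, with a limma adjusted p of 0.0517 without and 0.0297 with the block. Over all alternatives the change was 0.65 to 0.85 and the adjusted p 0.0258 to 0.149. Without both arrays numbered 1 it was 0.68 (adjusted p = 0.107, 0.0929 with the block).

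Tm7sf2 encodes a reductase that acts on the product of Cyp51. Its values were 8.31, 8.26, 8.75 and 8.04 in untreated and 7.56, 7.69, 7.83 and 7.73 in KCl arrays (8.34 ± 0.299 and 7.70 ± 0.115, SD, n = 4 each), so that the highest KCl array lay below the lowest untreated one. Its log2 change was -0.64 (SE 0.152, 95% confidence interval -0.98 to -0.29), or 0.643-fold. The limma adjusted p was 0.0778 without the block, 0.043 with it and 0.043 to 0.194 over all alternatives. It was 0.194 without both arrays numbered 1 (0.125 with the block). Cyp51 and Tm7sf2, which act in sequence, thus lay on opposite sides of 0, each with groups that did not overlap.

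Msmo1 oxidises methyl groups that are then removed from the sterol ring. It stood at 10.43, 10.42, 10.8 and 10.31 in untreated and at 10.89, 10.94, 10.91 and 10.98 in KCl arrays. The KCl arrays were close together (10.93 ± 0.0369, SD, n = 4) and all above the untreated ones (10.49 ± 0.215, SD, n = 4), of which replicate 3 came nearest. The log2 change was 0.44 (SE 0.116; limma adjusted p = 0.107, and 0.103 with the block); leaving out untreated replicate 3 gave 0.55 (adjusted p = 0.0405), and the range over all alternatives was 0.0405 to 0.245. The other enzymes of this demethylation did not share its sign: Nsdhl was at -0.15 (95% confidence interval -0.72 to 0.41) and Hsd17b7 at -0.20 (-0.59 to 0.20). Erg28, the scaffold that holds these enzymes together and no member of the list, stood at 10.51, 10.48, 10.93 and 10.34 in untreated and 10.08, 9.85, 10.1 and 10.06 in KCl arrays. These groups did not overlap (log2 change -0.54, limma adjusted p = 0.0945, 0.0601 with the block).

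Late enzymes that shift and add ring double bonds lay higher in KCl without passing the test. Ebp, the sterol isomerase, had a log2 change of 0.53 (95% confidence interval 0.03 to 1.04, limma adjusted p = 0.355), with 4 of 4 pairs higher. Its KCl replicate 2 stood at 7.35 and the other KCl arrays at 8.15 to 8.19, against untreated values of 7.15 to 7.84. Sc5d, a desaturase, had a log2 change of 0.54 (0.10 to 0.97, limma adjusted p = 0.254), with means of 10.34 ± 0.407 untreated and 10.87 ± 0.122 after KCl (SD, n = 4 each), and the pair numbered 3 was level at 10.82 in both arrays. Dhcr7, which completes cholesterol by the last reduction, was at -0.26 (-0.90 to 0.37). Of the earlier steps of this branch, Fdft1, which makes squalene, was at -0.04 (-0.42 to 0.34), Sqle, which adds oxygen to it, at 0.12 (-0.16 to 0.41), and Lss, which closes it to lanosterol, at -0.29 (-0.88 to 0.30). These intervals leave room for changes in either direction.

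**Figure D2:**
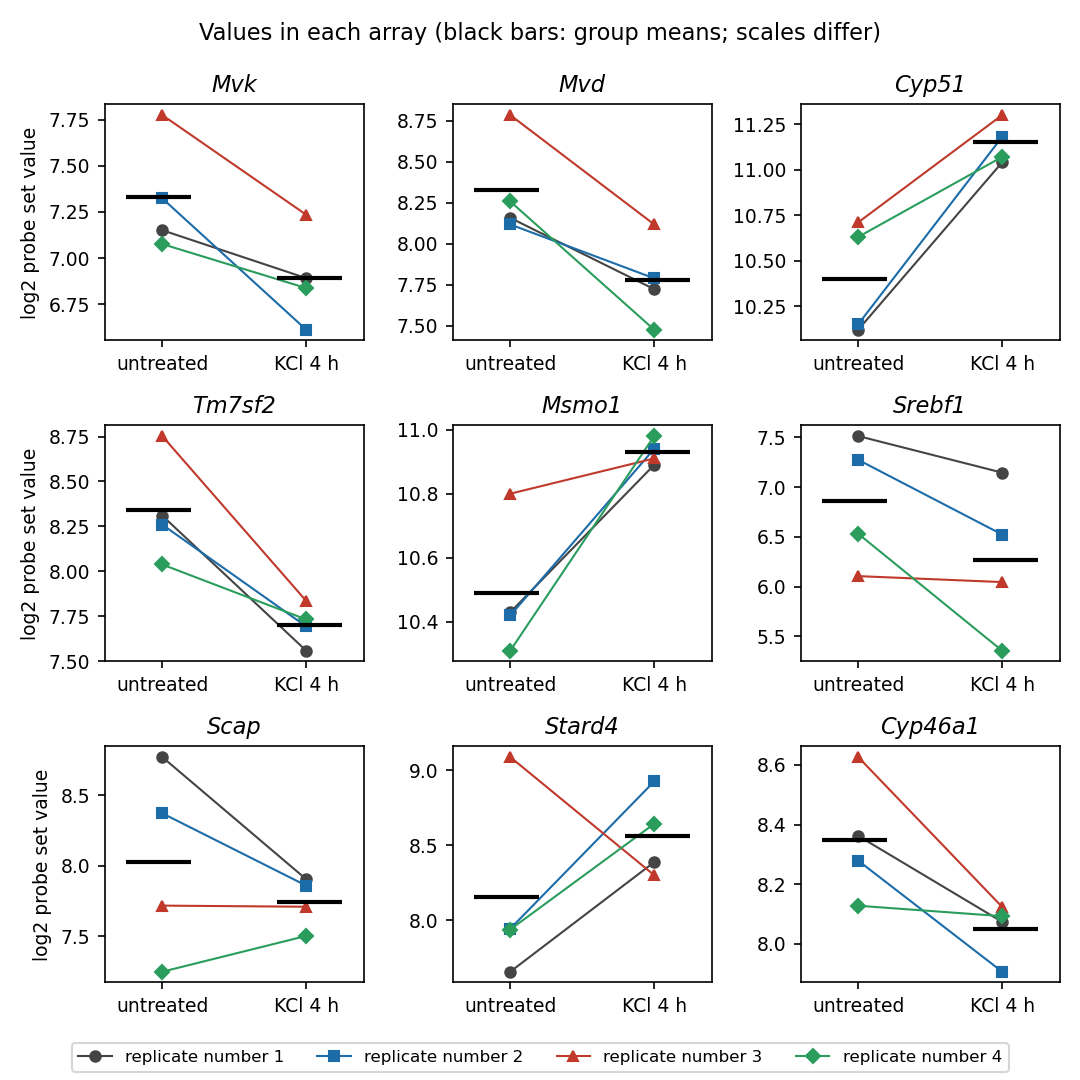
Log2 probe set values of 9 members in each array, untreated on the left and KCl 4 h on the right of each panel; lines join arrays with the same replicate number, black bars are group means, and each panel has its own scale. All 4 lines climb for Cyp51 and Msmo1 and all 4 descend for Mvk, Mvd, Tm7sf2, Srebf1 and Cyp46a1, while those of Scap and Stard4 do not run in 1 direction.

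None of the 5 regulators passed the test, and the groups overlapped for all of them. Srebf1, the factor tied most to fatty acid genes, stood at 7.51, 7.27, 6.11 and 6.53 in untreated and at 7.14, 6.52, 6.04 and 5.36 in KCl arrays. It was lower in 4 of 4 pairs, and within each group the arrays numbered 1 and 2 were higher than those numbered 3 and 4. Its log2 change was -0.59 (SE 0.425 without and 0.185 with the block; limma adjusted p = 0.697 and 0.151). Srebf2, the factor tied most to cholesterol synthesis, was at 9.62 ± 0.262 and 9.52 ± 0.159 (SD, n = 4 each), a change of -0.10 (95% confidence interval -0.43 to 0.24). Scap, the escort of both, had values of 8.77, 8.37, 7.72 and 7.25 in untreated and 7.91, 7.86, 7.71 and 7.50 in KCl arrays. All arrays numbered 1 and 2 lay above those numbered 3 and 4, and the change was -0.28 (-0.97 to 0.41, limma adjusted p = 0.839). A second, dimmer probe set of Scap (mean 4.25) lay on the other side of 0, at 0.16 (SE 0.167). Insig1 and Insig2, which retain Scap, were at 0.11 (-0.17 to 0.38) and 0.05 (-0.63 to 0.73).

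Among the 5 genes of transport and efflux, 3 had a change above 0 and 2 below, and none passed. Cyp46a1, the neuronal enzyme of cholesterol disposal, stood at 8.36, 8.28, 8.63 and 8.13 in untreated and at 8.07, 7.91, 8.12 and 8.09 in KCl arrays. The groups did not overlap, by a narrow margin between KCl replicate 3 and untreated replicate 4. Its log2 change was -0.30 (SE 0.12; limma adjusted p = 0.327, and 0.214 with the block). Stard4, a carrier of sterol through the cytosol, had values of 7.66, 7.94, 9.09 and 7.94 in untreated and 8.39, 8.93, 8.3 and 8.64 in KCl arrays: 3 of 4 pairs were higher and the pair numbered 3 lower, with untreated replicate 3 the highest of all arrays. Its change was 0.41 (95% confidence interval -0.28 to 1.09, adjusted p = 0.704) and 0.72 (adjusted p = 0.123) without that array. Npc1, which exports cholesterol from late endosomes, was at 0.19 (-0.18 to 0.57), and its second, dimmer probe set (mean 4.94) at 0.34 (SE 0.122). In the fit over all probe sets the unadjusted limma p was 0.0219 for the dimmer and 0.269 for the brighter probe set. Abca1 and Abcg1, the pumps that load cholesterol onto lipoproteins, were at 0.29 (-0.50 to 1.07) and -0.23 (-0.81 to 0.36). Abca1 stood at 9.59 to 9.96 in arrays numbered 1 and 2 and at 8.56 to 9.46 in those numbered 3 and 4.

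Among the untreated cultures, 1 array stood above the rest for most synthesis genes. Untreated replicate 3 was the highest untreated array for 14 of the 17 synthesis genes, against 25.8% of all genes. Averaged over these genes it lay 0.393 above the gene's mean over all arrays on the log2 scale, where the other untreated arrays lay at -0.179, -0.0802 and -0.122 and the KCl arrays at -0.0962, -0.0653, 0.131 and 0.0191. KCl replicate 3, of the same number, was the highest KCl array for 10 of 17, against 24.8% of all genes. The standard deviation was larger in untreated than in KCl arrays for 15 of 17 synthesis genes, against 55.6% of all genes, but for 10 of 17 once the arrays numbered 3 were left out. The difference between same-numbered arrays had a median over the synthesis genes of 0.127, -0.0737, -0.241 and 0.112 for numbers 1 to 4. Without untreated replicate 3 the median log2 change of the synthesis genes was 0.10 in place of -0.05. The regulators and efflux genes followed another order, with untreated replicate 1 the highest untreated array for 6 of 10, against 28.5% of all genes, and untreated replicate 4 the lowest for 6 of 10, against 6089 of 22180 genes. These counts were chosen after the values were seen.

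**Figure D3:**
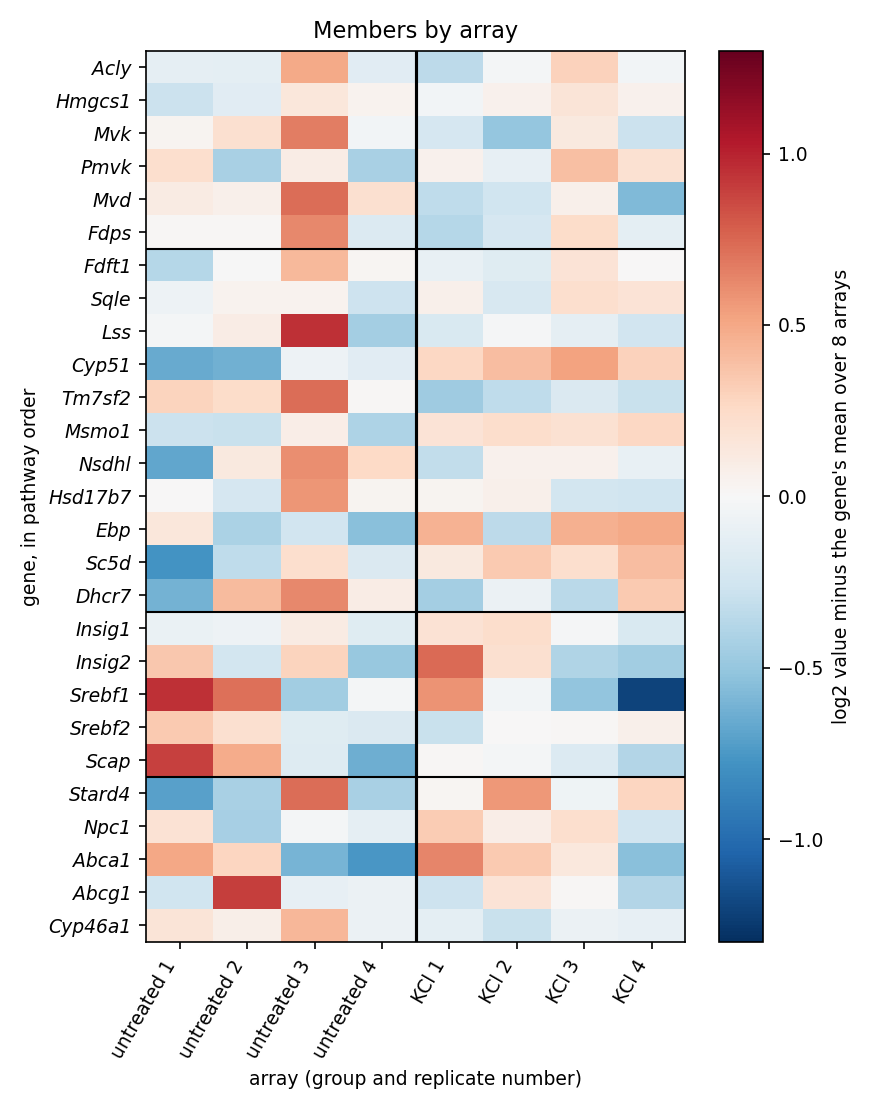
Each member's log2 value in each array minus its mean over the 8 arrays; rows follow the pathway, with lines between role groups, and the vertical line parts untreated from KCl arrays. Untreated replicate 3 is red for most synthesis genes, and Scap and Abca1 are higher in arrays numbered 1 and 2 than in those numbered 3 and 4.

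In 5 wider lists of the same metabolism, 51 of 60 genes were measured, and 1 of them passed the test. It was 0 of 7 genes of synthesis and isoprenoid branches and 0 of 9 of sterol sensing and SREBP processing. It was 0 of 12 of uptake and movement inside the cell and 0 of 9 of efflux, esterification and oxysterols. For fatty acid synthesis it was 1 of 14. Over all genes 2.36% passed, so that 1 of 51 is near the background. By unadjusted limma p, 8 of the 51 were under 0.05, against 13.0% of all genes; 1 was higher (5.69% of all genes) and 7 lower (7.34%). Gpam, a mitochondrial acyltransferase that starts triglyceride synthesis and belongs to the fatty acid genes under SREBP, fell to 0.596 of its untreated level, from 8.83, 8.64, 8.58 and 8.62 to 7.88, 8.01, 7.71 and 8.07 (log2 change -0.75, SE 0.108, limma adjusted p = 0.0129). It passed with every single array left out (adjusted p = 0.0262 to 0.0412) and with the block (0.0192), and not without both arrays numbered 1 when the block was kept (0.0592). The other 13 measured genes of that list did not pass. Of the 51 genes, 17 had a log2 change above 0 and 34 below, with a median of -0.07. Over all genes 10456 were above and 11724 below, with a median of -0.01. The lists were chosen with earlier results known, and the difference was not tested. In the remaining lists the genes with the smallest p were, by list, Erg28 and Dhdds, a dolichol synthase subunit (-0.25); Mbtps1, a protease that cleaves SREBP (-0.66, adjusted p = 0.242), and Rnf139, a ubiquitin ligase (-0.31); Lrp8, an apolipoprotein E receptor (-0.42, adjusted p = 0.232), and Stard3, a sterol carrier (0.52); and Apoe, the main lipid carrier of the brain (-0.84), and Abcg4, a neuronal efflux pump (-0.31). Apoe stood at 6.96, 6.53, 7.06 and 6.66 in untreated and at 6.26, 6.25, 5.78 and 5.55 in KCl arrays, with no overlap, and missed the threshold without and with the block (limma adjusted p = 0.0707 and 0.0507).

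**Figure D4:**
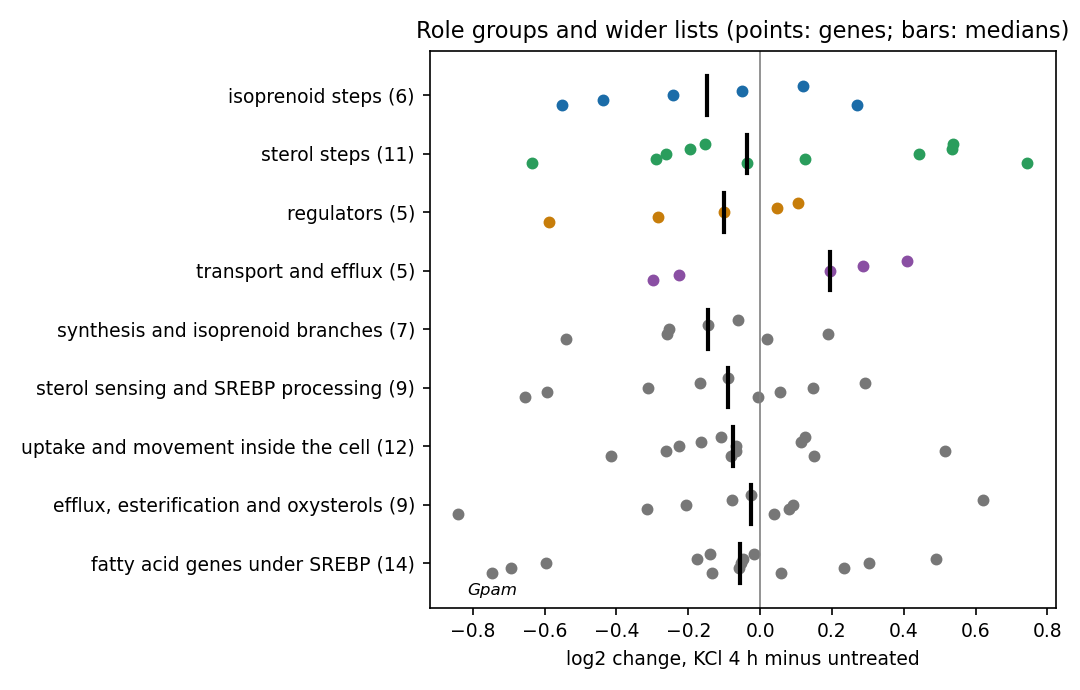
Log2 changes, KCl 4 h minus untreated, of the genes in the 4 role groups (coloured) and the 5 wider lists (grey), with the number of measured genes in parentheses and a bar at each median. The medians lie between -0.15 and 0.19, and Gpam at -0.75 is the only point among these lists that passed the test without the block.

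Transcripts of astrocytes as well as neurons were present in the cultures. Some neuronal markers, such as Snap25 (12.21 to 12.47), and some astrocyte markers, such as Gfap (10.45 to 11.26), were bright on all arrays. Others were dim: gene means ran from 5.15 to 12.3 for neuronal and from 4.66 to 11.2 for astrocyte markers. The mean over 10 astrocyte markers was 8.36 to 9.28 in untreated and 8.37 to 9.03 in KCl arrays, and that over 14 neuronal markers 9.33 to 9.88 and 9.37 to 9.91. Of the astrocyte markers, Slc1a2, a glutamate transporter, was called lower (log2 change -0.78, limma adjusted p = 0.0479, 0.062 with the block) and 9 did not pass. No neuronal marker passed without the block, and with it Gad2, of inhibitory neurons, was called lower (log2 change -0.49, limma adjusted p = 0.0458). Gad1, also of inhibitory neurons, lay on the other side of 0 (log2 change 1.08, limma adjusted p = 0.353 without and 0.0765 with the block). The arrays numbered 1 had astrocyte means of 9.03 to 9.28, against 8.36 to 8.8 in the others, and neuronal means of 9.33 to 9.37, against 9.57 to 9.91, and their part in the values of the members was not tested. Markers of oligodendrocytes, microglia, vessels and fibroblasts averaged 4.12 to 4.96, near the median gene of 4.69 to 4.82. The brightest marker of each list was higher, at means of 7.29, 6.54, 6.73 and 5.41 in that order. Kdr, a vessel marker, stood at 7.76 to 8.34 in arrays numbered 1 and 2 and at 5.18 to 5.62 in those numbered 3 and 4. In such mixed cultures fewer cells of a type and less RNA per cell cannot be told apart.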

How the data were processed

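RNA from 4 untreated and 4 KCl cultures was measured on Affymetrix arrays. Each deposited value is the log2 level of a probe set, as the authors summarised it; the submitters' processing notes name RMA and Partek. Settings, and whether batches were adjusted for, were not given in the sources used here. Differences near background are understated by RMA. Of 34472 probe sets, 23521 had 1 gene symbol and 1814 several, which left 22180 genes (brightest probe set per gene). No low-value filter was applied. Groups came from the titles.

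KCl was set against untreated in limma (version 3.58.1, under R 4.3.3; lmFit, then eBayes; two-sided, Benjamini-Hochberg over all genes, threshold 0.05). The fit without the block was checked on simulated data in which arrays were independent. That check did not cover paired arrays or the fit with the block. Deviations from group means correlated at 0.638, 0.234, 0.409 and 0.368 between same-numbered arrays, so the numbers were taken to pair the arrays, from the data and not from a stated litter or day. The members and lists were chosen with earlier results of these data known. Values in every array were given for members past the threshold, members without overlap and the 2 smallest p per role; wider lists contribute genes past the threshold or else the 2 smallest p. Alternatives were the block, repeated quantile normalization, median centring, brighter genes, probe set handling, eBayes settings, array weights and left-out arrays. Promoter windows are RefSeq's. Figures used matplotlib 3.10.9.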

Additional observations from a re-analysis of the deposited data

Results flagged for a closer look

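Within the groups of 4 arrays, 5 of 72 gene and group combinations held an array set apart from the other 3 by more than Dixon's 95% critical value for the gap over the range; chance gives about 1 in 20. Acly stood at 10.3 in untreated replicate 3 and at 9.66 to 9.7 in the other untreated arrays. Ebp stood at 7.35 in KCl replicate 2 and at 8.15 to 8.19 in the others. Srebf2 stood at 9.28 in KCl replicate 1, against 9.57 to 9.63. Abcg1 stood at 6.85 in untreated replicate 2, against 5.7 to 5.89. Erg28 stood at 9.85 in KCl replicate 2, against values of 10.1 in the others.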

How the results depend on the processing

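The count of members called higher was 0 as planned and 1 with the replicate block, repeated quantile normalization, brighter genes, trended and robust eBayes, or array weights (Cyp51 each time), and 0 to 1 in the fits lacking 1 array, the 1 being Msmo1 without untreated replicate 3. Members called lower numbered 0 as planned, 2 with the replicate block and 0 in each fit with a single array left out. Over all genes, 297 were higher and 227 lower; the block gave 539 and 446, trended and robust eBayes 150 lower, and single arrays left out 118 to 254 higher and 68 to 247 lower. The median of the regulators, transport and efflux genes ranged from -0.144 to 0.0447 over left-out arrays. Among 36 named genes and 648 refits, 623 kept direction and side of the threshold, 8 came to pass, 1 ceased to pass (Gpam) and 16 turned sign, none of them past the threshold. The signs that turned were those of Acly (0.00505 without both arrays numbered 1, with or without the block; -0.159 to 0.104 over left-out arrays), Fdft1 (-0.169 to 0.096), Nsdhl (-0.404 to 0.0202), Abcg1 (-0.35 to 0.0329), Insig2 (-0.19 to 0.206, and -0.066 without both arrays numbered 1, with or without the block) and Srebf2 (0.0751 without both, with or without the block). The cause was not tested. Among these 36 genes the block changed the calls of Cyp51, Tm7sf2 and Mvd and of no other; among the markers named, it ended the call of Slc1a2 and gave one to Gad2. Dim genes are compressed by RMA, and 4 arrays a group limit precision.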
